A study of Mus musculus with 6 samples.

Results

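The regions described here are the windows of the 4 mouse Hox clusters, HoxA at chr6:52100001-52300000, HoxB at chr11:96100001-96400000, HoxC at chr15:102900001-103050000 and HoxD at chr2:74600001-74800000 (mm10), as measured by MiGS, the sequencing of genomic fragments bound by a methyl-CpG-binding domain (MBD) protein. All 50 bp windows inside these limits were taken, a window with no entry counting as 0. They number 17000, of which 1450 held a read in at least 1 of 4 libraries, among 2915907 such windows in the whole series. HoxA contributed 523 of them, HoxB 601, HoxC 121 and HoxD 205. Each cluster was set against the 1 Mb on either side of it, where 13394 windows held a read.

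The samples were sorted microglia, the resident macrophages of the central nervous system, taken from mice with experimental autoimmune encephalomyelitis (EAE), an induced disease that models multiple sclerosis, once their clinical score had reached its plateau (peak), and from mice before induction (naive). MiGS was made in 2 peak and 2 naive libraries and RNA-seq in 1 peak and 1 naive library. EAE was induced at 24 to 28 weeks of age with the myelin oligodendrocyte glycoprotein peptide 35-55 in Ccr2rfp/+::Cx3cr1gfp/+ mice on the C57Bl/6 background, in which each reporter replaces 1 copy of a chemokine receptor gene. The genotype and age of the naive mice are not stated separately. Cells of 30 mice per condition were pooled. The design names brains, whereas the extraction protocol names brains and spinal cords; cells passed a Percoll gradient and a sort on F4/80 and CD45, markers that infiltrating macrophages also carry. The MiGS libraries are called biological replicates, but nothing says whether they came from separate pools of mice, so p-values reflect variation among these libraries alone, some of which may be technical.

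Hox genes encode homeodomain transcription factors that give cells their position along the body axis. They lie in clusters in which genes of the low-numbered (anterior) paralogous groups sit at one end and those of the high-numbered (posterior) groups at the other. In cells that do not use them the clusters are typically held silent by Polycomb proteins, and their CpG-rich start sites are usually free of DNA methylation, while methylation of CpG between and within the genes is common. An MBD protein captures fragments that carry several methylated CpG, so a window without reads may hold unmethylated CpG or few CpG at all.

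The 300-base promoters of 3 Hox genes show this sequence context, with every CG dinucleotide in capitals. They run from 250 bases before to 50 after the start (RefSeq, GRCm38.p6, which is mm10) and are printed along the gene's own strand. Hoxa5, at chr6:52204538-52204837 on the minus strand, had the highest captured signal of the Hox promoters and 29 CG. Hoxa13, at chr6:52260831-52261130 on the minus strand, had the most CG, 45, of those without any read. Hoxb4, at chr11:96318017-96318316 on the plus strand and with 14 CG, belongs to the Hox gene with the most RNA-seq counts.
Hoxa5: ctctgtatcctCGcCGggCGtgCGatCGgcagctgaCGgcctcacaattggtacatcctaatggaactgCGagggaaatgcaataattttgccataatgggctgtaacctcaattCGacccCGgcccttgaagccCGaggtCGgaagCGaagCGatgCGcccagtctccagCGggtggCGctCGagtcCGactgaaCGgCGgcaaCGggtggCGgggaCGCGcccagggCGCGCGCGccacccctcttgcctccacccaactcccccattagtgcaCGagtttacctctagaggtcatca
Hoxa13: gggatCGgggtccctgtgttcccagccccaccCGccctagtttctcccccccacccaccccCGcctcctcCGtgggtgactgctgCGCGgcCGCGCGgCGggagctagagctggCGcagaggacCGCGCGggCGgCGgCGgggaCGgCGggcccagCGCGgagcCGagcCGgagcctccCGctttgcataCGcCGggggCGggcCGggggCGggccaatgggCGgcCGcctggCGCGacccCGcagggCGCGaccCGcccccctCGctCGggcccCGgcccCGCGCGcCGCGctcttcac
Hoxb4: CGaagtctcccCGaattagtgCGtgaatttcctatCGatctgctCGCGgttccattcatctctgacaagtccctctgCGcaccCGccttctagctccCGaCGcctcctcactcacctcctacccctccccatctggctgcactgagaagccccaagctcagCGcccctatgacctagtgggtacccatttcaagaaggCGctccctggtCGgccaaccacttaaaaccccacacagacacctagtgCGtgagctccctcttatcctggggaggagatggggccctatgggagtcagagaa

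The deposited window values were whole reads multiplied by a constant per library, 0.828 and 0.816 for peak libraries 1 and 2 and 1.14 and 1.16 for naive libraries 1 and 2; they are called signal here. The libraries held between 30424742 and 43970332 reads summed over windows, a large part of them in 474 windows of over 2000 reads, none of which lay in a Hox cluster. The Hox clusters held 8374 and 4694 reads in peak libraries 1 and 2 and 4884 and 5404 reads in naive libraries 1 and 2, which were 0.0435%, 0.0241%, 0.0356% and 0.0262% of the reads outside those 474 windows. In the median Hox window with a read, peak library 1 held 5 reads, peak library 2 held 3, naive library 1 held 4 and naive library 2 held 3. The libraries stood apart in their signal at methylated promoters. Promoters of germline genes, which are normally methylated in somatic cells, had a mean signal per window of 10.6 and 32.8 in peak libraries 1 and 2 and of 24.0 and 89.8 in naive libraries 1 and 2. The median 200 kb region of chromosomes 1 to 19 carried 4.43 and 4.18 per kb in the peak libraries and 4.16 and 6.64 per kb in the naive libraries. Peak library 1 thus had the lowest signal at germline promoters, and naive library 2 the highest there and in the median region. The share of reads in the highest single window had the opposite order, at 7.22% in peak library 1 and 5.19% in naive library 2. These differences bear on every comparison of libraries below, and their part in those results was not tested.

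HoxC and HoxD were sparsely captured relative to their surroundings in all 4 libraries, HoxB was slightly below its surroundings, and HoxA was level with its own on average. HoxC carried a signal of 1.53 and 0.768 per kb in the peak libraries 1 and 2 and 1.79 and 2.12 per kb in the naive libraries 1 and 2. Its flanks carried 7.03 and 7.19 per kb in the peak libraries and 6.81 and 10.9 per kb in the naive libraries. The cluster was thus far below its flanks in each library, with no overlap between the cluster values and the flank values. HoxD carried 3.73 and 1.59 per kb in the peak libraries and 2.42 and 3.33 per kb in the naive libraries. The flanks of HoxD carried 7.71 and 6.66 per kb in the peak libraries and 6.90 and 9.89 per kb in the naive libraries, again above every cluster value. On the log2 scale with 1 per kb added to both levels, the mean cluster-to-flank ratio over 4 libraries was -1.82 ± 0.32 for HoxC and -1.25 ± 0.29 for HoxD (SD, n = 4).

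HoxB lay below its flanks although it held the highest single 10 kb bin of the 4 clusters by the mean over 4 libraries; in peak library 1 that bin was in HoxA. Its level was 10.5 and 7.30 per kb in the peak libraries and 8.92 and 12.8 per kb in the naive libraries. The HoxB flanks carried 13.6 and 12.7 per kb in the peak libraries and 12.4 and 17.4 per kb in the naive libraries. Within each library the cluster was the lower of the pair, but across libraries the values overlapped, and the mean log2 ratio was -0.48 ± 0.17 (SD, n = 4). HoxA split the libraries. It carried 14.0 and 6.05 per kb in the peak libraries and 10.6 and 7.22 per kb in the naive libraries, against 9.47 and 7.98 per kb in the flanks of the peak libraries and 7.97 and 9.92 per kb in the flanks of the naive libraries. HoxA was therefore above its flanks in peak library 1 and naive library 1, with log2 ratios of 0.52 and 0.37, and below them in peak library 2 and naive library 2, with log2 ratios of -0.35 and -0.41. The mean log2 ratio of HoxA was 0.03 ± 0.48 (SD, n = 4).

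**Figure D1:**
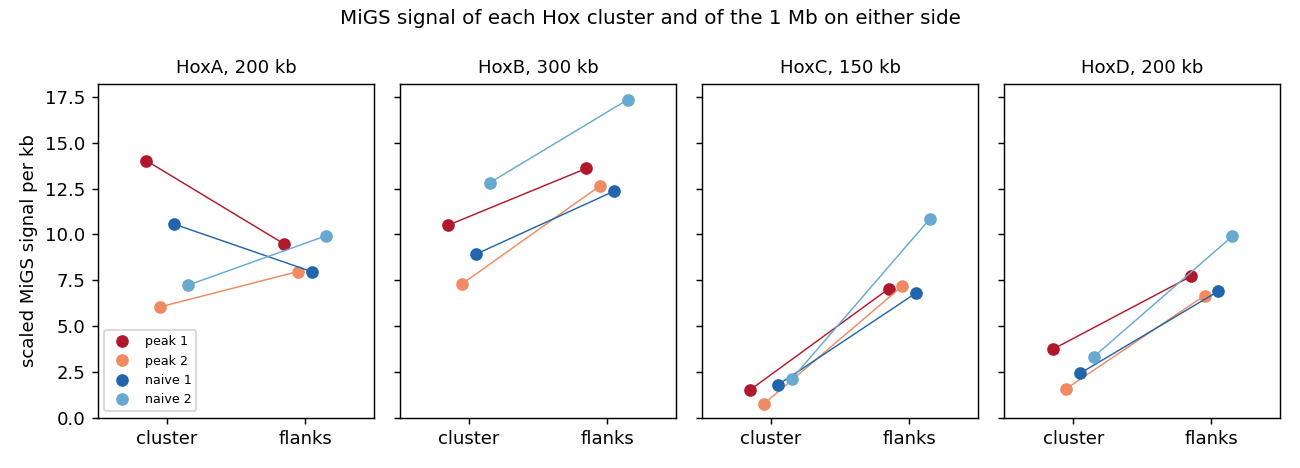
Mean signal per kb (vertical axis) of each Hox cluster and of the 1 Mb on either side of it, in 2 peak libraries (red and orange) and 2 naive libraries (dark and light blue); a line joins the cluster and flank values of a library. In HoxC and HoxD all 4 lines rise towards the flanks, whereas in HoxA the lines of peak library 1 (14.0 in the cluster, 9.47 in the flanks) and naive library 1 fall and the others rise.

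The ratios were tested with limma across all 200 kb regions of chromosomes 1 to 19 together with the 4 clusters, 11766 in all, each against its own flanks. HoxB, HoxC and HoxD were below their flanks, with a log2 ratio of -0.48 (SE 0.095, adjusted p = 0.0019) for HoxB, -1.82 (SE 0.12, adjusted p = 5.04e-06) for HoxC and -1.25 (SE 0.12, adjusted p = 2.96e-05) for HoxD. HoxA was at 0.03 (SE 0.17, adjusted p = 0.868). Such calls were common, as 47.4% of all regions were called below and 27.8% above their flanks, so the call itself was shared by 5572 regions in the direction of HoxB, HoxC and HoxD. The size of the ratio placed the clusters apart from each other: of 11762 other regions, 62.3% had a lower ratio than HoxA, 35.2% a lower one than HoxB, 8.58% a lower one than HoxD and 2.0% a lower one than HoxC. An exact sign-flip permutation test over the 4 libraries gave p = 0.125 for HoxB, HoxC and HoxD, the smallest that 4 libraries allow, and p = 0.875 for HoxA (two-sided). The HoxB call did not hold when the limits were drawn from the first to the last Hox gene (log2 ratio -0.13, limma adjusted p = 0.257) or when the mean was taken over listed windows only (-0.32, adjusted p = 0.0659).

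**Figure D2:**
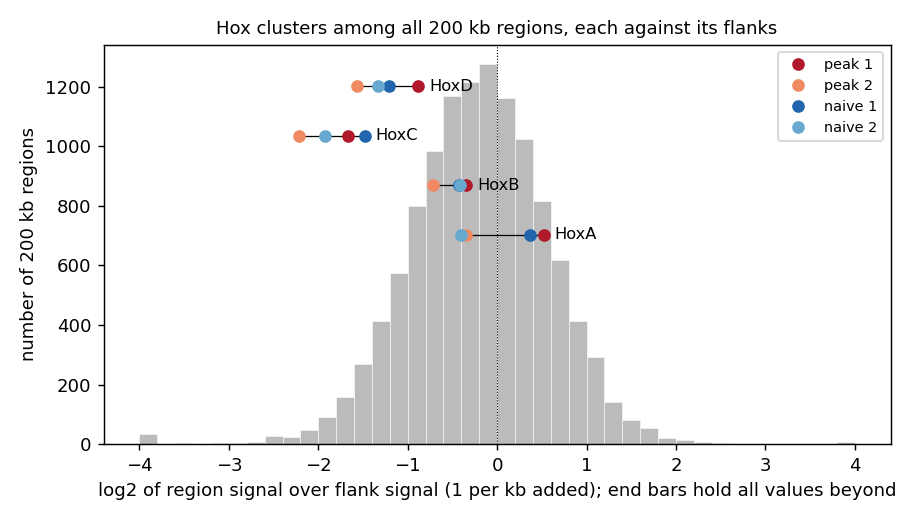
Distribution of the log2 ratio of region signal to flank signal, averaged over 4 libraries, for 11762 regions of 200 kb (grey bars, number of regions), with the ratio of each Hox cluster in the single libraries drawn as points joined by a line at an arbitrary height. HoxC lies in the left tail in all 4 libraries, HoxD between -1.57 and -0.88, HoxB left of 0, and HoxA on both sides of 0.

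In the share of the ground covered, HoxC and HoxD were again low. Of the 50 bp windows of HoxC, 4.03% held a read in at least 1 library, against 6.40% in its flanks, and 0.10% held at least 20 reads summed over the libraries, against 2.10% in its flanks. In HoxD 5.12% of windows held a read and 0.775% held at least 20, against 6.99% and 2.07% in the flanks. HoxA was more widely covered than its flanks, with 13.1% of windows against 8.64%, and HoxB slightly less, with 10.02% against 11.5%. The longest stretch without a read in any of the 4 libraries spanned 35300 bp in HoxC, at chr15:102900001-102935300, and held the whole of Hoxc13, the posterior end gene with a role in hair and nail formation. In HoxD it spanned 18700 bp at chr2:74620751-74639450, outside the Hox genes and around the noncoding gene Gm22975. In HoxB it spanned 14400 bp at chr11:96168701-96183100 and in HoxA 10100 bp at chr6:52140451-52150550, both between annotated genes. Long unread stretches are not particular to the clusters, since the flanks of HoxC held one of 112450 bp and those of HoxA one of 15700 bp.

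Within HoxA the signal was unevenly spread, in an order that differed between libraries. In bins of 10 kb the level averaged over 4 libraries ranged between 1.20 and 38.5 per kb, with a median of 5.20. The highest bin, chr6:52200001-52210000, covers Hoxa5 and Hoxa6, whose products pattern the neck and upper trunk, and carried 70.6 and 14.7 per kb in the peak libraries 1 and 2 and 45.2 and 23.5 per kb in the naive libraries 1 and 2. It was high in both libraries numbered 1 and low in both numbered 2, whatever the condition. A second rise in the bin at chr6:52220001-52230000, which holds Hoxa9, had another order, with 18.6 and 30.3 per kb in the peak libraries and 29.2 and 36.0 per kb in the naive libraries. In both libraries numbered 2 this second bin was above that of Hoxa5 and Hoxa6. Little of its signal came from the body of Hoxa9, which held 10 and 15 reads in the peak libraries and 9 and 12 reads in the naive libraries. A stretch between genes, chr6:52220551-52220850, held 62 and 209 reads in the peak libraries and 100 and 223 reads in the naive libraries. In HoxB the highest bin, chr11:96320001-96330000, lay in the RefSeq span of Hoxb3 and the end of Hoxb4, and carried 48.4 and 55.0 per kb in the peak libraries and 53.9 and 136 per kb in the naive libraries. Both peak values and that of naive library 1 lie close together, and naive library 2 stands above them. HoxC had no bin above 4.05 per kb on average over 4 libraries and 3 of 15 bins without a read, and the highest bin of HoxD averaged 13.7 per kb.

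**Figure D3:**
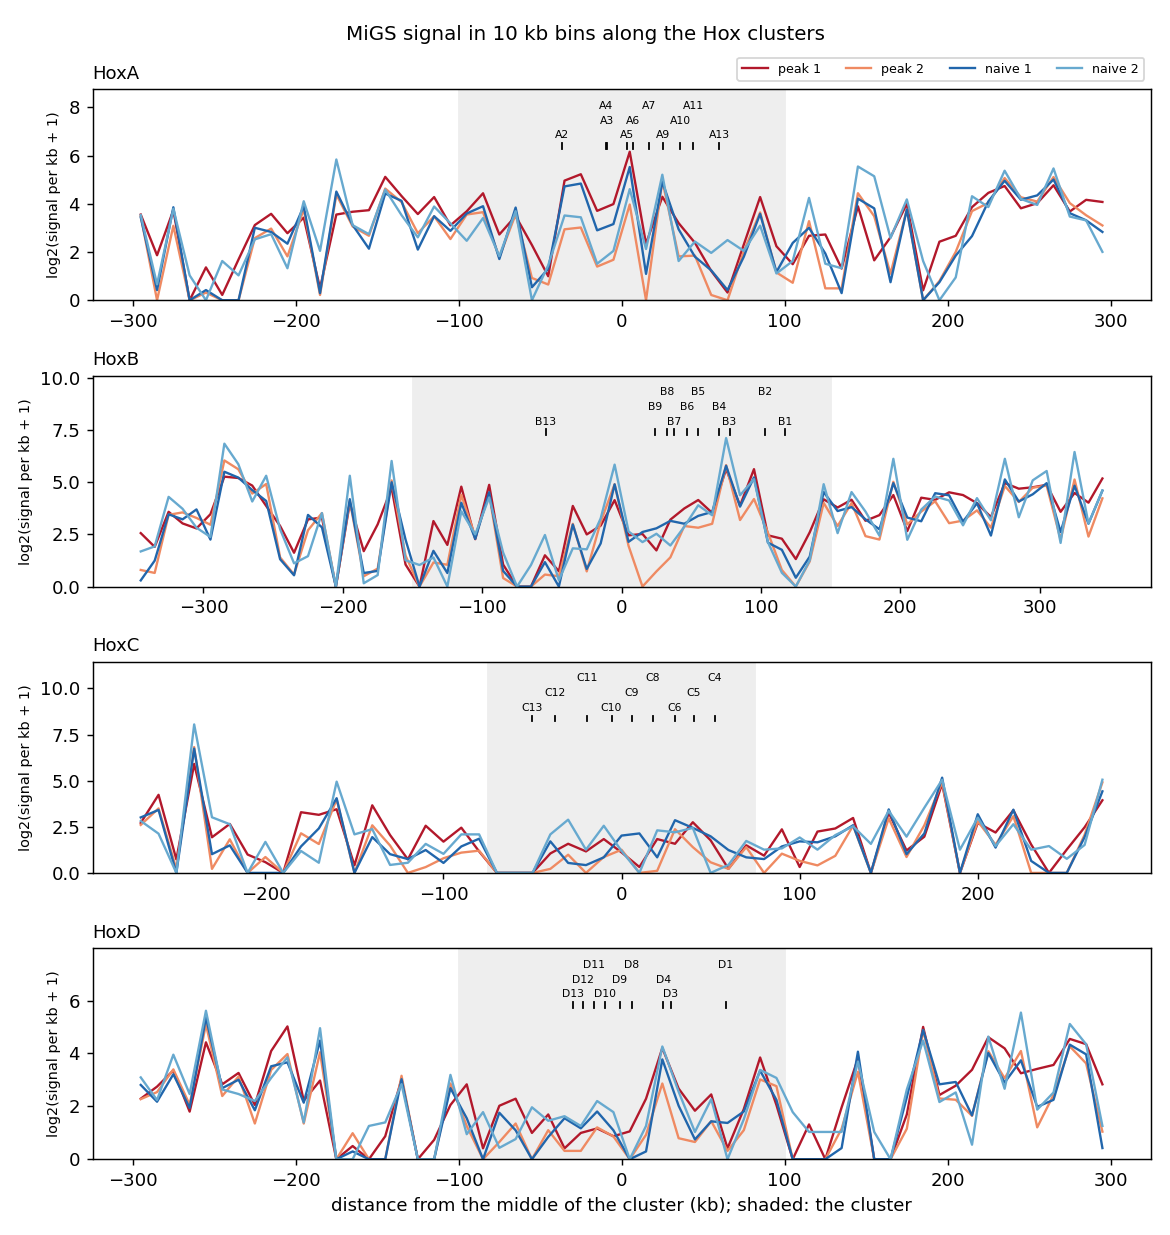
Signal in 10 kb bins, as log2 of signal per kb with 1 added (vertical axis), against the distance in kb from the middle of each Hox cluster (shaded) to 200 kb beyond its limits, in 2 peak libraries (red and orange) and 2 naive libraries (blue); ticks mark the middle of 38 Hox gene spans, named by cluster letter and paralog number. The lines of HoxA separate from Hoxa2 to Hoxa6, where peak library 1 reaches 70.6 per kb and peak library 2 only 14.7, and those of HoxC stay low throughout the cluster.

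Captured runs, meaning at least 3 windows of 20 or more reads with gaps of up to 100 bp, numbered 59 over the clusters and covered 15250 bp. HoxA held 27, HoxB 26, HoxD 5 and HoxC 1, and 29 of the 59 overlapped a Hox gene. The run with the highest mean signal in HoxA, chr6:52220551-52220850, lay between genes, 2128 bp from the start of Hoxa7, and had a mean signal per window of 8.56 and 28.4 in the peak libraries and 18.9 and 43.2 in the naive libraries. It was lowest in peak library 1, the reverse of the Hoxa5 bin. The next, chr6:52137601-52137800, lay between genes 27130 bp from the start of Hoxa2 and was of similar height in all libraries, at 15.3 and 22.7 in the peak libraries and 26.4 and 25.6 in the naive libraries. The third of HoxA, chr6:52220051-52220250, had 9.31 and 18.2 in the peak libraries and 9.08 and 9.58 in the naive libraries, so that it was high in 1 peak library and alike in the others.

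In HoxB the highest run, chr11:96325551-96326350, was also the longest, at 800 bp, and lay inside the span of Hoxb3. It had a mean signal per window of 19.4 and 17.5 in the peak libraries and 22.3 and 75.8 in the naive libraries, its highest window holding 226 reads in naive library 2. Both naive values were above both peak values here, but the gap rests on naive library 2. The run at chr11:96248551-96249100 in the noncoding gene Gm11539 had 10.4 and 21.8 in the peak libraries and 20.3 and 44.7 in the naive libraries, and that at chr11:96320651-96320950, where the spans of Hoxb4 and Hoxb3 overlap, had 10.5 and 27.9 in the peak libraries and 16.1 and 41.6 in the naive libraries. In both, the groups overlapped and peak library 1 was lowest. The single run of HoxC, chr15:103000801-103000950, fell in Hoxc6 and had 2.21 and 7.62 in the peak libraries and 12.5 and 6.97 in the naive libraries. In HoxD the highest runs lay at chr2:74789551-74789750 and chr2:74797951-74798150, both between genes and 26670 and 27762 bp from the nearest start, and at chr2:74723351-74723550 in Hoxd4, where naive library 2 had 27.9 and the other libraries between 3.73 and 3.97.

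In the bodies of the Hox genes, without 500 bp at either end, mean signals were lowest in the posterior groups. Posterior genes (groups 9 to 13, 16 genes) had a mean signal of 3.30 and 1.14 per kb in the peak libraries and 2.30 and 3.61 per kb in the naive libraries, lower than the anterior and central groups in every library. Anterior genes (groups 1 to 4, 12 genes) had 21.1 and 12.6 per kb in the peak libraries and 16.9 and 19.6 per kb in the naive libraries. Central genes (groups 5 to 8, 11 genes) had 20.8 and 4.04 per kb in the peak libraries and 15.5 and 7.36 per kb in the naive libraries, so that they varied most between libraries as a ratio. These means are carried by a few genes, mainly Hoxa3 to Hoxa6, Hoxb3 and Hoxb4. The groups are also unevenly spread over the clusters, with many posterior genes in the sparsely captured HoxC and HoxD. Position and cluster were not separated, and the order did not hold for every gene within a cluster. By the median, central genes had 6.52 and 0.737 per kb in the peak libraries and 6.55 and 4.50 per kb in the naive libraries, against 2.08 and 0.853 per kb for posterior genes in the peak libraries and 1.97 and 2.12 per kb in the naive libraries, so that the order of these groups turned in peak library 2. Bodies of the 33021 genes outside the clusters averaged 13.5 and 14.4 per kb in the peak libraries and 14.0 and 21.3 per kb in the naive libraries. Neighbouring Hox genes share windows where their RefSeq spans overlap, as those of Hoxb3 and Hoxb4 do, so the genes are not independent of each other.

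Hoxb4, which promotes self-renewal of blood stem cells, had the highest body signal of the 39 genes on average, at 34.2 and 85.4 per kb in the peak libraries and 50.1 and 110 per kb in the naive libraries. It was high in both libraries numbered 2, and the groups overlapped. Hoxa6 had 86.1 and 12.2 per kb in the peak libraries and 68.1 and 9.54 per kb in the naive libraries, the opposite order. Hoxa5 had 69.4 and 11.5 per kb in the peak libraries and 40.5 and 19.5 per kb in the naive libraries, and Hoxa4 had 71.2 and 9.80 per kb in the peak libraries and 40.9 and 17.4 per kb in the naive libraries. These 3 neighbours thus varied together between libraries, with both libraries numbered 1 above both numbered 2. In HoxD only Hoxd4, a hindbrain patterning gene, had a comparable level, at 27.3 and 9.29 per kb in the peak libraries and 19.2 and 27.8 per kb in the naive libraries. Hoxb13, Hoxc12, Hoxc13, Hoxd1 and Hoxd9 had no read in their bodies in any library, where a count of 0 allows up to 3 reads, or a summed signal of 2.45 to 3.48 depending on the library.

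**Figure D4:**
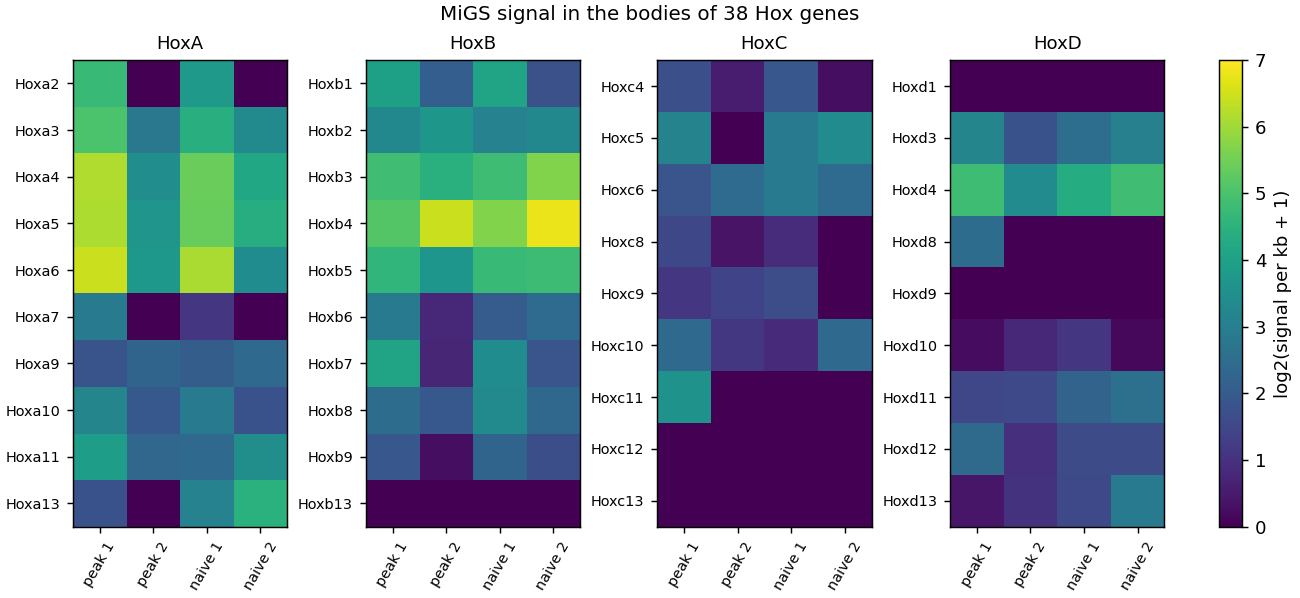
Signal in the bodies of 38 Hox genes, as log2 of signal per kb with 1 added (colour), with the genes of each cluster in order of paralog number (rows) and 2 peak and 2 naive libraries (columns). Hoxa4 to Hoxa6 are brightest in peak library 1 and naive library 1, Hoxb4 in peak library 2 and naive library 2, and most posterior genes are dark.

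The ends of the genes, from 1000 bp outside to 500 bp inside, were highest for Hoxa5, at 103 and 19.3 per kb in the peak libraries and 57.5 and 31.0 per kb in the naive libraries. Hoxa6 followed with 76.5 and 15.0 per kb in the peak libraries and 48.1 and 35.2 per kb in the naive libraries, and Hoxa3, a gene of pharyngeal arch and neck development, with 43.9 and 8.71 per kb in the peak libraries and 26.1 and 18.2 per kb in the naive libraries. All 3 were highest in peak library 1 and lowest in peak library 2. The end intervals of Hoxa5 and Hoxa6 overlap and share windows, so their values are not independent of each other. At the other extreme, 6 Hox genes had no read at their ends in any library, among them Hoxc11 and Hoxc13. That was 15.4% of the 39 Hox genes, against 35.5% of the 47003 other genes. At least 20 reads were found at the ends of 24 Hox genes (61.5%), against 51.2% of the other genes. The gap narrowed when any single library was left out, most of all without naive library 1 (51.3% against 49.7%). The mean signal at Hox gene ends was nevertheless the lower in 3 of 4 libraries, at 10.4 and 3.19 per kb in the peak libraries and 7.54 and 6.03 per kb in the naive libraries, against 10.4 and 11.8 per kb for other genes in the peak libraries and 10.99 and 19.9 per kb in the naive libraries, the means of peak library 1 being alike. The medians had another order. Hox gene ends had medians of 2.48 and 0.544 per kb in the peak libraries and 2.23 and 2.32 per kb in the naive libraries. Those of other genes were 2.76 and 0.544 per kb in the peak libraries and 0.757 and 1.16 per kb in the naive libraries. By the median, Hox gene ends were thus the higher in both naive libraries. By the mean, the order of the paralogous groups differed from that of the bodies. Central genes averaged 22.7 and 5.02 per kb in the peak libraries and 12.3 and 11.2 per kb in the naive libraries. Anterior genes were lower, with 9.82 and 3.79 per kb in the peak libraries and 6.75 and 4.16 per kb in the naive libraries. The central means rest largely on Hoxa5 and Hoxa6. By the median, central genes had 8.28 and 0 per kb in the peak libraries and 3.03 and 7.36 per kb in the naive libraries. The anterior medians were 3.59 and 1.22 per kb in the peak libraries and 2.27 and 0 per kb in the naive libraries. The order thus turned in peak library 2.

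Promoter sequences were held for 22 of the 39 Hox genes, 24 promoters in all. The motif CG, which reads the same on both strands and cannot overlap itself, occurs at least once in 94.8% of the 31396 mouse promoters of this length, with a median of 7 per promoter. The Hox promoters held between 4 and 45 CG, with a median of 14.5. No read was found over 15 of the 24 (62.5%), against 82.5% of the 31372 other promoters, and at least 20 reads were found over 5 (20.8%), against 10.4% of the others. The mean signal per window went the other way in 3 of 4 libraries, at 0.616 and 0.107 for Hox promoters in the peak libraries and 0.426 and 0.429 in the naive libraries, against 0.446 and 0.582 for the others in the peak libraries and 0.537 and 1.08 in the naive libraries. Among promoters with at least 20 CG, 3 of 11 Hox promoters had at least 20 reads (27.3%), against 3.67% of the 8480 others. These counts depend on single libraries: without the reads of peak library 1, 2 of the 24 Hox promoters (8.33%) reached 20 reads, against 7.89% of the others, and 1 of the 11 with at least 20 CG (9.09%), against 2.89%. Without naive library 1 or without naive library 2, 3 of the 24 did (12.5%), against 9.38% and 9.44% of the others. Without peak library 2, 4 did (16.7%), against 9.47%. For comparison, 1 of 42 promoters of developmental transcription factors outside the clusters and 16 of 16 promoters of germline genes reached 20 reads. These shares are descriptions of a small set in which neighbours share a locus. The 20 reads were reached by 4 of 10 promoters in HoxA and 1 of 10 in HoxD. In HoxB 0 of 3 did, and in HoxC 0 of 1. Only HoxA thus exceeded the share of the other promoters.

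The Hoxa5 promoter printed above, which held a dense block of CG, had 67 and 4 reads in the peak libraries 1 and 2 and 24 and 37 reads in the naive libraries 1 and 2. That is a mean signal per window of 7.93 and 0.467 in the peak libraries and 3.89 and 6.14 in the naive libraries, and peak library 2 stood apart from the other 3. Next came the Hoxa10 promoter at chr6:52234890-52235189, with 21 and 8 reads in the peak libraries and 3 and 3 reads in the naive libraries. The other Hoxa10 promoter, at chr6:52240805-52241104, had no read in any library. Hoxa11 followed, with 0 and 5 reads in the peak libraries and 7 and 12 reads in the naive libraries. Hoxa10, a gene of limb and uterus development, was higher in both peak libraries at the first of these promoters. Hoxa11, its neighbour with a role in the forearm and kidney, was lower in both. These differences rest on few reads, and the share of all promoters with such a separation was not counted. Hoxa7 and the second promoter of Hoxd11 had 24 reads each in all, 17 and 13 of them in peak library 1. In contrast, the Hoxa13 and Hoxd13 promoters, with 45 and 37 CG, had no read in any library. The Hoxb4 promoter had 2 and 0 reads in the peak libraries and 4 and 0 reads in the naive libraries, although its gene body had the highest mean of the family over 4 libraries. Of the miRNA genes in the clusters, the hairpin of Mir10b had 15 and 0 reads in the peak libraries and 1 and 2 reads in the naive libraries, and that of Mir196b had 11 and 0 reads in the peak libraries and 6 and 0 reads in the naive libraries. Those of Mir10a, Mir196a-1 and Mir196a-2 had none.

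**Figure D5:**
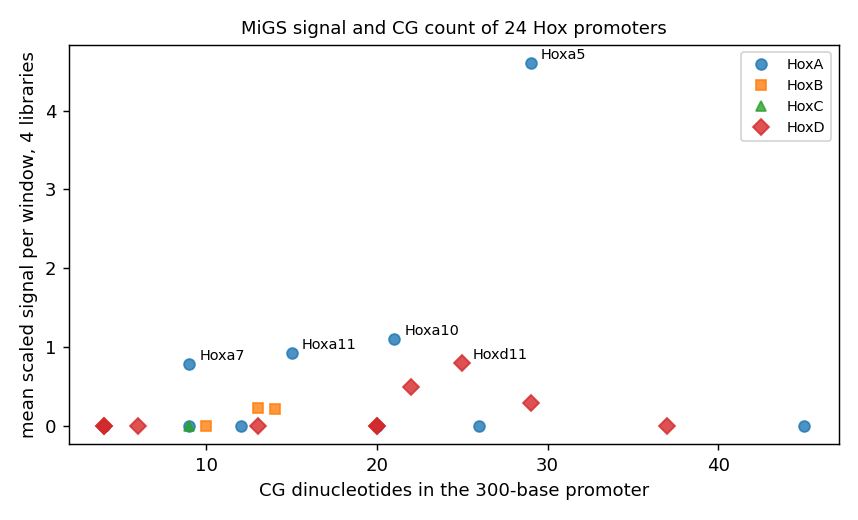
Mean signal per window over 4 libraries (vertical axis) against the number of CG dinucleotides (horizontal axis) for 24 Hox promoters, with a marker shape per cluster. Hoxa5, with 29 CG, stands alone at 4.61, and the promoters with the most CG, Hoxd13 with 37 and Hoxa13 with 45, lie at 0.

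The comparison of peak with naive microglia showed no Hox region that passed the test. Levels of the clusters averaged 10.04 ± 5.65 per kb in peak and 8.90 ± 2.37 per kb in naive libraries for HoxA, and 8.91 ± 2.27 in peak and 10.9 ± 2.76 in naive libraries for HoxB (SD, n = 2 each). HoxC averaged 1.15 ± 0.54 per kb in peak and 1.96 ± 0.23 per kb in naive libraries, and HoxD 2.66 ± 1.51 in peak and 2.88 ± 0.64 in naive libraries. In HoxC both peak values were below both naive values, and in the others the groups overlapped. The share of all 200 kb regions with such a separation was not counted. Among all tested 10 kb bins, 13.6% had both peak values below both naive values. The log2 differences of peak minus naive were 0.08 for HoxA, -0.26 for HoxB, -0.48 for HoxC and -0.14 for HoxD. The exact permutation test of 2 against 2 libraries, whose smallest two-sided p is 0.333, gave p = 1, 0.667, 0.333 and 1 in that order. Relative to the flanks, the log2 ratio differed between peak and naive by 0.11 (SE 0.33) for HoxA, -0.11 (SE 0.19) for HoxB, -0.23 (SE 0.24) for HoxC and 0.04 (SE 0.24) for HoxD, with limma adjusted p-values between 0.864 and 0.972. None of the 11766 regions was called in that comparison (0%), 211 having an unadjusted p under 0.05.

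At the scale of single windows, limma called none of 936715 windows with at least 20 reads (0% in either direction), the 321 Hox windows among them included. An unadjusted p under 0.05 was found for 42797 windows (4.57%), 5 of them in Hox clusters. edgeR and DESeq2 on the recovered reads, without a replicate block, also called 0 windows, and 0 of the bins, gene ends and gene bodies described below. Both peak values were above both naive values in 30 of the 321 Hox windows (9.35%), against 16.8% of all tested windows, and below them in 45 (14.0%), against 18.7%. Of the 30, 9 lay in HoxA, 17 in HoxB and 4 in HoxD, and of the 45, 12 lay in HoxA, 28 in HoxB and 5 in HoxD. The Hox shares are thus not above those of the genome in either direction. The median log2 difference was -0.07 over the Hox windows and -0.09 over all tested windows.

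The Hox windows with the smallest p illustrate how few reads such differences rest on. The window chr2:74723501-74723550, in Hoxd4 and the span of Hoxd3, had 3 and 3 reads in the peak libraries and 7 and 22 reads in the naive libraries, a log2 difference of -2.15 (SE 0.67, limma adjusted p = 0.818). The window chr6:52113301-52113350, in the long noncoding gene Halr1 beside HoxA, had 24 and 19 reads in the peak libraries and 15 and 0 reads in the naive libraries, a log2 difference of 2.13 (SE 0.78, limma adjusted p = 0.818). In signal, the groups did not overlap in the Hoxd4 window, whereas they overlapped in the Halr1 window, where the difference rests on the empty naive library 2. The next in each direction were chr6:52220051-52220100, with 12 and 15 reads in the peak libraries and 1 and 4 reads in the naive libraries, and chr11:96391101-96391150, with 11 and 5 reads in the peak libraries and 14 and 16 reads in the naive libraries.

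Of 172228 bins of 10 kb, limma called none (0%; 5.31% with an unadjusted p under 0.05, 1 Hox bin among them). Of the 76 Hox bins, 7 had both peak values above both naive values, against 15.9% of all bins, and 11 had both below, against 13.6%. The smallest p belonged to chr11:96270001-96280000 over Hoxb8 and Hoxb9. It carried 2.32 and 0.653 per kb in the peak libraries and 5.90 and 4.76 per kb in the naive libraries, a log2 difference of -1.43 (SE 0.68, limma adjusted p = 0.896). Both peak values were below both naive values there. In the other direction chr11:96210001-96220000, between annotated genes, carried 13.5 and 7.02 per kb in the peak libraries and 6.81 and 2.56 per kb in the naive libraries, with groups that just failed to overlap. The bin at chr11:96130001-96140000, in Ttll6, a gene beside HoxB, was also higher in both peak libraries, at 26.5 and 19.9 per kb, against 15.1 and 11.2 per kb in the naive libraries. The bin at chr11:96240001-96250000 had 16.6 and 28.8 per kb in the peak libraries and 28.6 and 56.0 per kb in the naive libraries, and the groups overlapped.

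Of 26409 gene bodies, limma called none (0%; 3.81% with an unadjusted p under 0.05, 2 Hox genes among them). Of the 29 Hox gene bodies with at least 20 reads, 0 had both peak values above both naive values and 5 had both below, against 14.3% of all tested bodies in each direction. The body of Hoxa13, a gene of digit and genital development, had 3 and 0 reads in the peak libraries and 7 and 19 reads in the naive libraries, or 2.37 and 0 per kb in the peak libraries and 7.57 and 21.0 per kb in the naive libraries (log2 difference -2.90, SE 0.70, limma adjusted p = 0.972). Hoxd13, its HoxD paralog, had 1 and 3 reads in the peak libraries and 4 and 13 reads in the naive libraries. In both genes the groups did not overlap, on 29 reads or fewer. The bodies with the smallest p in the other direction, Hoxb2 and Hoxc9, had log2 differences of 0.30 (SE 0.38) and 0.44 (SE 0.69). At the gene ends limma called none of 24112 genes either (0%; 4.94% with an unadjusted p under 0.05, none of them a Hox gene). Of the 24 Hox genes tested there, 2 had both peak values above both naive values, against 20.2% of all, and 4 had both below, against 12.9%.

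The ends of Hoxb9, a gene of thoracic patterning, carried 3.31 and 1.91 per kb in the peak libraries and 12.1 and 9.29 per kb in the naive libraries, a log2 difference of -1.71 (SE 0.95, limma adjusted p = 0.898). Those of Hoxc12 carried 3.31 and 0.544 per kb in the peak libraries and 7.57 and 5.03 per kb in the naive libraries. In both, the groups did not overlap, and the peak values were the lower. In the opposite direction the Hoxa4 ends carried 4.69 and 1.63 per kb in the peak libraries and 1.51 and 0 per kb in the naive libraries, with groups that just failed to overlap. The Hoxb3 ends carried 35.3 and 18.2 per kb in the peak libraries and 20.8 and 11.2 per kb in the naive libraries, and the groups overlapped. The log2 differences were -1.48 (SE 1.13) for Hoxc12, 1.29 (SE 1.39) for Hoxa4 and 0.69 (SE 0.57) for Hoxb3.

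RNA-seq of the same sorted cells, with 36561934 counts in the peak and 31282093 counts in the naive library and no replicate in either, found the Hox genes almost unread. Of the 39 genes, 19 had 0 counts in both libraries, where a count of 0 allows up to 3, and 18 more had between 1 and 9 counts in total. Hoxb3 had 6 counts in the peak and 7 counts in the naive library. Hoxb4 alone reached 50 counts over both libraries, with 79 counts (0.842 FPKM) in the peak and 54 counts (0.673 FPKM) in the naive library. After TMM scaling its ratio was 1.33-fold, with an exact 95% interval of 0.930 to 1.92 that covers counting error only, so the libraries could not be told apart at this depth. The other 38 genes together had 28 counts in the peak and 27 counts in the naive library. The labels do not say if reads were counted by strand, and Hoxb4 lies within the RefSeq span of Hoxb3, so reads of the pair may be shared. Hoxb4 had the highest MiGS body signal by the mean over 4 libraries, but in peak library 1 it lay below Hoxa4, Hoxa5 and Hoxa6 and in naive library 1 below Hoxa6. These 3 genes had between 0 and 3 RNA-seq counts in total.

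Genes that act with or upon the Hox clusters were read more deeply. Of 9 genes for TALE homeodomain proteins, which bind DNA together with Hox proteins, 7 had at least 50 counts. Meis2 had 18 counts in the peak and 33 counts in the naive library (ratio 0.503), Meis1 had 264 in the peak and 331 in the naive library (ratio 0.726), and Meis3 had 1274 in the peak and 625 in the naive library (1.85-fold), so the ratios lay on both sides of 1. Of 23 Polycomb genes, 3 were at least 2-fold higher in the peak library and 0 lower. Phf19, an accessory subunit that guides Polycomb repressive complex 2, had 280 counts in the peak and 19 counts in the naive library (13.1-fold, interval 8.43 to 22.6), Ezh2, its histone methyltransferase, had 792 in the peak and 191 in the naive library (3.77-fold, interval 3.22 to 4.44), and Pcgf5 had 645 in the peak and 247 in the naive library (2.37-fold, interval 2.05 to 2.76). Cbx7, a chromodomain subunit of complex 1, had 734 in the peak and 1316 in the naive library (ratio 0.508). Cbx7 and Meis2 passed 2-fold under scaling by library totals or by upper quartiles (for Cbx7 a log2 ratio of -1.07 or -1.11, against -0.98 with TMM), which also shifts the median of all genes by -0.089 or -0.14. A list of Trithorax and histone demethylase genes, classes that oppose Polycomb silencing, also held Ctcf, which belongs to neither. None of its 10 genes with at least 50 counts differed 2-fold. The widest ratios among them were those of Psip1, a reader of methylated histone H3 (1.84-fold, 1030 counts in the peak and 508 in the naive library), Kdm6b, a histone demethylase (ratio 0.646, 846 in the peak and 1191 in the naive library), the methyltransferase Kmt2a (ratio 0.674) and its partner Dpy30 (1.37-fold). As background, the peak library exceeded the naive library 2-fold or more for 11.6% of the 14367 genes with 50 or more counts, and fell short of it by as much for 9.35%. The median log2 ratio was 0.0063 over the Polycomb genes, -0.44 over the TALE genes and -0.13 over the Trithorax and demethylase list, against -0.0027 over all these genes. Of 50 developmental transcription factors outside the clusters, 19 had 0 counts in both libraries and 5 reached 50 counts, all 5 of them 2-fold or more lower in the peak library. Otx2, a forebrain and retina factor, had 60 counts in the peak and 167 counts in the naive library.

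The sorted cells carried the defining markers of microglia in both conditions, all 6 of the list being read, with a summed level of 8531 FPKM in the peak and 12982 FPKM in the naive library. Of the 6, 1 was 2-fold or more lower in the peak library (P2ry12, 60990 counts in the peak and 115890 in the naive library). The log2 ratios of the list lay between -1.06 and -0.26, with a median of -0.79. Of 6 monocyte markers 5 were at least 2-fold higher in the peak library, with a summed level of 106 FPKM in the peak and 6.50 FPKM in the naive library and none at 0. T cell markers summed to 2.07 FPKM in the peak and 0.655 FPKM in the naive library, where Cd3e and Cd3g were at 0, and 1 of 4 reached 50 counts, at a higher level in the peak library. B cell markers summed to 0.146 FPKM in the peak and 0.396 FPKM in the naive library. Neutrophil markers summed to 25.2 FPKM in the peak and 25.8 FPKM in the naive library, with 2 of 4 2-fold or more lower in the peak library (Camp with 16 counts in the peak and 54 in the naive library, Ngp with 42 in the peak and 92 in the naive library) and S100a8 1.49-fold higher. Border macrophage markers summed to 38.3 FPKM in the peak and 73.0 FPKM in the naive library, 2 of 4 being 2-fold or more lower in the peak library. Among markers of other tissue cells, 3 of 5 for astrocytes (23.6 FPKM in the peak, 52.7 FPKM in the naive library), 2 of 4 for oligodendrocytes (8.10 in the peak, 11.4 in the naive library), 4 of 4 for endothelium (8.94 in the peak, 21.2 in the naive library) and 3 of 3 for erythroid cells (41.6 in the peak, 145 in the naive library) were 2-fold or more lower in the peak library. Of the astrocyte list, Gfap was higher, with 258 counts in the peak and 89 counts in the naive library (2.63-fold), and Aldh1l1 was 1.31-fold higher. None of 4 neuron markers differed so (1.52 FPKM in the peak, 1.20 FPKM in the naive library). In bulk samples fewer cells of a type and less RNA per cell cannot be told apart, and the part of these cells in the captured DNA was not tested.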

How the data were processed

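MiGS was measured in 2 peak and 2 naive libraries and RNA-seq in 1 library of each. The submitters' processing notes name Bowtie2, TopHat, featureCounts, edgeR and the build mm10, without their roles or versions. The deposited MiGS values are a signal per 50 bp window, read counts scaled by the authors with 1 factor per library; every value was a whole multiple of the lowest (100% within 0.001), and reads were recovered so. The RNA-seq table holds deposited raw counts per Ensembl gene and the authors' FPKM, whose gene lengths are not stated; 506 of 42303 rows had no symbol (0.0647% of peak and 0.0573% of naive counts) and were left out.

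Windows, 10 kb bins, gene ends and gene bodies with at least 20 reads were compared with limma 3.58.1 (variance trend, log2 of signal plus 1, per kb except for windows), which understates changes of low values, with Benjamini-Hochberg adjustment over all features of chromosomes 1 to 19 at 0.05. Regions were compared with their flanks by limma without a variance trend, on log2 ratios with 1 per kb added to both levels. The adjustment was the same, over all regions. edgeR 4.0.16 and DESeq2 1.42.0 on the recovered reads were alternatives; scripts were tested on simulated data. RNA-seq ratios were taken after TMM scaling of genes with at least 50 counts and 0.5 added, with Clopper-Pearson 95% intervals; a single library per condition allowed no test. Intervals and zero counts cover counting error only, since reads carry no molecular identifiers.

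The members and gene lists were chosen with earlier results of these data known. Named were the 3 highest runs and the longest unread stretch per cluster, the 3 highest and lowest gene ends, the 2 features of smallest p in each direction, Hox genes with 50 RNA-seq counts and the list members with the largest RNA ratios; other Hox genes were named after their values were seen. Genes come from RefSeq (GRCm38.p6), without exons, so exonic and intronic positions are not given. Results for some genes are not reported here.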

Additional observations from a re-analysis of the deposited data

How the results depend on the processing

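HoxC and HoxD were below their flanks, and called, in all 10 alternatives. HoxB was not called with limits at the first and last Hox gene (log2 ratio -0.13) or over listed windows only (-0.32). HoxA changed sign with flanks of 500 kb (-0.12) and over listed windows only (-0.56), and lay between -0.19 and 0.25 with single libraries left out; over listed windows only, 5126 regions were called in all. With single libraries left out, the other log2 ratios to the flanks lay between -0.57 and -0.38 for HoxB, -1.96 and -1.69 for HoxC, and -1.42 and -1.07 for HoxD.

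The peak minus naive difference of these ratios was never called for a Hox cluster but had no stable sign. With limits at the Hox genes it was -0.044 for HoxA and -0.12 for HoxD, and for HoxD it was -0.0089 with 0.1 per kb added and -0.014 over listed windows only. With single libraries left out it lay between -0.33 and 0.54 for HoxA, -0.30 and 0.076 for HoxB, -0.51 and 0.038 for HoxC, and -0.30 and 0.39 for HoxD, and between 0 and 15 regions were called, 15 without peak replicate 2 and 8 without naive replicate 1. The log2 difference of the cluster level was -0.062 for HoxA with limits at the Hox genes and 0.063 for HoxD when scaled to the reads outside windows of over 2000 reads. With single libraries left out it lay between -0.47 and 0.62 for HoxA, -0.50 and -0.022 for HoxB, -0.74 and -0.22 for HoxC, and -0.57 and 0.30 for HoxD. The cause of these changes was not tested.

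Of all tested windows, 18 were called with a minimum of 50 reads. Without naive replicate 1 there were 34199 calls, of which 10 lay in Hox clusters (6 higher and 4 lower in peak), and without naive replicate 2 there were 33, of which 0 did; the lone library is then assumed to vary like the other group. With the sample number as a replicate block, 70120 windows were called by limma (0.264% higher and 7.22% lower) and 49220 by edgeR (0.327% higher and 4.93% lower). The Hox windows called were 10 by limma and 7 by edgeR; the 7 were all in HoxB and lower in peak, in the runs at Gm11539 and inside Hoxb3. The block gave 6127 bins by limma and 1605 by edgeR with no Hox bin, 1383 and 806 gene ends with no Hox gene, and 1597 and 1058 gene bodies, with 1 Hox gene by limma (Hoxa13, adjusted p = 9.26e-05) and 0 by edgeR. It called 141 regions against flanks, with no Hox cluster. Labels do not say what a number marks. Deviations of same-numbered libraries correlated at r = 0.398 over all tested windows and 0.384 over the Hox windows; with 2 pairs this is a hint from the data, and the numbers were not taken as pairs. The body of Hoxc9 changed sign without naive replicate 2, its log2 difference lying between -0.38 and 1.26 with single libraries left out. The Hoxb4 RNA ratio moved within its interval, and 2 Hox genes passed a minimum of 10 counts.

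Depth limits single windows most, since the median Hox window with a read held 3 to 5 reads per library; the 3 windows of HoxC with 20 reads say little about that cluster. With single libraries left out and the minimum of 20 reads kept, an alternative chosen after seeing the data, the Hox promoters that reached it numbered 2 to 4, those with at least 20 CG 1 to 3, and the Hox gene ends 19 to 23. Of the other promoters 7.89% to 9.47% reached it, and of those with at least 20 CG 2.50% to 3.29%. For gene ends the Hox shares lay between 48.7% and 59.0%, against 43.2% to 49.7% of the other genes.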
